A study of Hordeum vulgare with 39 samples.

Results

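The change of gene expression in the barley (Hordeum vulgare) endosperm between 4 and 8 days after pollination (DAP) was measured by poly-A RNA sequencing. The comparison rests on 6 of the 39 libraries of a seed development series: the 3 labelled as endosperm of 8 DAP and the 3 labelled as endosperm of 4 DAP, with every transcript entry of the count table. Both groups came from untreated plants of the six-rowed spring cultivar Morex grown in a climate chamber, and the tissue was dissected by hand. The rest of the series covers endosperm of 16, 24 and 32 DAP, embryo from 8 to 32 DAP and seed maternal tissues from 4 to 24 DAP, each with 3 libraries per stage. The labels do not say how many plants or grains went into a library or whether replicates came from separate plants. The p-values therefore measure the spread between libraries, part of which may be technical. For the edgeR tests this spread was estimated over all 13 groups of the series, not over the 6 compared libraries alone. RNA was isolated with kits from 2 suppliers, and which library had which kit is not stated. In whole tissue, fewer cells of a type and less RNA per cell cannot be told apart.

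The cereal endosperm arises from the second fertilization event and feeds the embryo and later the seedling. It begins as a syncytium in which nuclei divide without walls, then becomes cellular, and its cells go on to form transfer cells, aleurone and starchy endosperm. The starchy endosperm then fills with starch and storage proteins, which in barley are mainly hordeins. The design places 4 and 8 DAP as the earliest interval of the endosperm series. The identifiers of the table (prefix HORVU.MOREX.r3) matched 0 entries of the reference gene table at hand (assembly MorexV3), so genes are given by identifier, without names or functions, and groups of genes are described by level, position in the identifier order and expression in the other tissues. An entry is called a gene below.

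The 8 DAP libraries held 15899434, 16695817 and 28245871 counts, and the 4 DAP libraries 36307192, 12599695 and 6148131 counts. Pearson's r between replicates was 0.992 to 0.994 for the 8 DAP libraries, against 0.981 to 0.990 for those of 4 DAP (across genes, log2(CPM + 1), where CPM is the read count per 1000000 reads of the library total; genes are not independent replicates). The median SD between replicates of genes averaging at least 10 CPM was 0.13 at 8 DAP and 0.28 at 4 DAP on the log2 scale, so the earlier stage carried the larger error. Of the 13 groups, 4 DAP endosperm had the largest such SD. The edgeR tests share a spread estimated over all groups, so their p-values may understate the error at 4 DAP. The library numbers in the titles run on within 4 DAP and lie apart from those of 8 DAP, so a difference of preparation or sequencing run that these numbers might track cannot be told apart from stage. Replicate 3 of 8 DAP also has a number apart from replicates 1 and 2.

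Close to 1 in 2 of the genes tested were called changed between the stages. Of 29594 genes tested, 13853 (46.8%) were called, meaning that the edgeR quasi-likelihood test gave a Benjamini-Hochberg adjusted p under 0.05 and that the log2 fold change was 1 or more in size. At 8 DAP 7658 genes (25.9%) were higher and 6195 genes (20.9%) lower than at 4 DAP. For 7591 of the higher genes the 3 libraries of 8 DAP all lay above the 3 of 4 DAP in CPM, and for 5252 of the lower genes all lay below. Over all genes tested, 13289 were separated in the first direction and 5487 in the second. The balance of the directions depended on the scaling. With factors by the trimmed mean of M-values (TMM, the scaling used throughout), which were 0.846 to 0.921 at 8 DAP and 0.454 to 0.707 at 4 DAP, 55.3% of the calls were higher. With the library total alone 72.0% were higher, and the median log2 fold change of all genes moved by 0.69. With median-ratio factors 48.0% were higher, so the majority direction is relative to the scale. In CPM with TMM factors, the stages were separated for 7511 of the higher and 5772 of the lower genes. Over all genes tested, the numbers on that scale were 10471 and 7644. The call count was 13044 without replicate 3 of 8 DAP, and 12421 without replicate 1 of 4 DAP, the library with the lowest TMM factor.

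The called genes also accounted for most of the reads. Genes called higher at 8 DAP took 49.3%, 49.8% and 51.4% of the counts of the 8 DAP libraries, against 4.25%, 4.95% and 5.23% in the 4 DAP libraries. Genes called lower took 18.8%, 18.3% and 17.5% at 8 DAP, against 76.6%, 74.0% and 71.8% at 4 DAP. The stages are far apart in both shares, with no overlap, as the choice of these genes on the same libraries ensures. The genes tested but not called took 31.6% ± 0.459 at 8 DAP and 21.0% ± 1.89 at 4 DAP (means and SDs of 3 libraries).

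**Figure D1:**
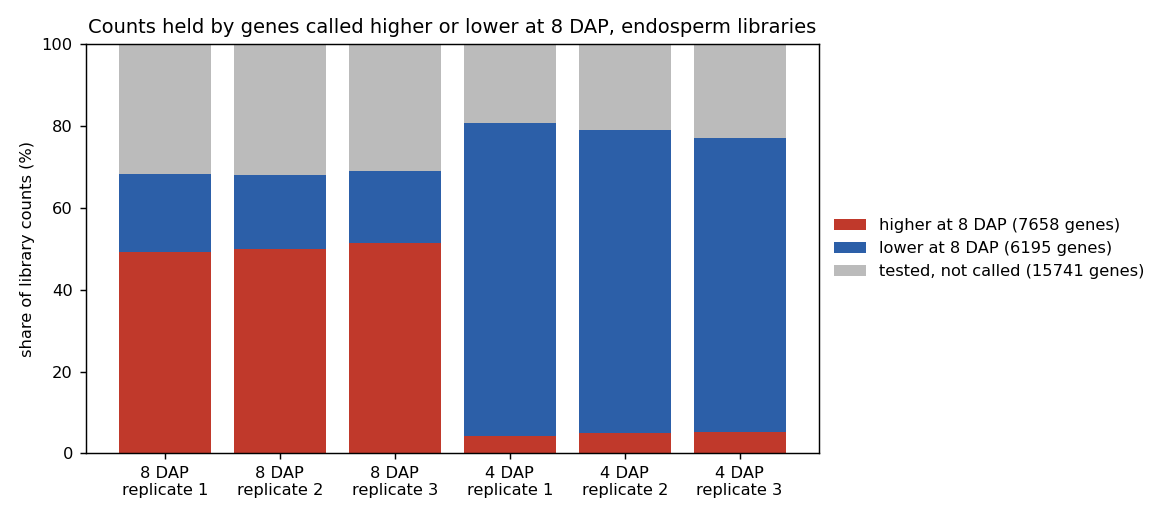
Share of library counts (%) in genes called higher at 8 DAP, genes called lower and genes tested but not called, 1 bar per endosperm library. Lower genes fill 71.8% to 76.6% of the 4 DAP bars and 17.5% to 18.8% of the 8 DAP bars.

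On the TMM scale lower calls outnumbered higher calls among abundant genes, and the reverse held among scarcer genes. Of 153 genes averaging at least 1000 CPM over the 6 libraries, 107 (69.9%) were lower at 8 DAP and 32 (20.9%) higher. Between 100 and 1000 CPM, 670 of 1581 genes (42.4%) were lower and 383 (24.2%) higher. From 10 to 100 CPM the order turned, with 1982 of 7454 genes (26.6%) lower and 2272 (30.5%) higher, and from 1 to 10 CPM 2042 of 7926 (25.8%) were lower and 2760 (34.8%) higher. Levels are per read and not per transcript length, since no gene lengths were at hand, so these classes order genes by reads.

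On that scale the median fitted sizes of change were much alike in both directions, and less alike once low counts were bounded. The median fitted log2 fold change was 2.66 among higher genes and -2.64 among lower genes, against 0.16 over all genes tested. Many called genes had at most 3 counts in every library of the lower stage, which was taken as the floor: 2320 of the higher and 1187 of the lower genes. With these genes set at the fold that the floor allows, the medians were 1.75 and -2.30. The floor came to 0.488 CPM in the shallowest 4 DAP library, against at most 0.189 CPM at 8 DAP. Rises were thus bounded more strictly than falls, so the bounded medians do not show that rises were smaller. Most of the higher genes rose by 1 to 4 on the log2 scale (2522 by 1 to 2 and 2909 by 2 to 4). A further 1017 changed by 4 to 6 and 1210 by 6 or more, of which 1086 lay under the floor at 4 DAP. Among lower genes the numbers were 2058, 2387, 957 and 793, with 563 of the last class under the floor at 8 DAP.

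None of the 10 genes with the most reads at 8 DAP was among the 10 of 4 DAP. The lists of 100 shared 23 genes, and the lists of 1000 shared 441. All 10 of the 8 DAP list were called higher, and 9 of the 10 of the 4 DAP list were called lower. Of the 100 leading genes of 8 DAP, 60 were called higher, 18 lower and 22 not called. Of the 100 leading genes of 4 DAP, 95 were called lower, 1 higher and 4 not called.

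The lists also differed in what followed. The 100 genes of the 8 DAP list took 29.3% ± 1.68 of the endosperm reads at 8 DAP and 9.86% ± 0.728 at 4 DAP, and then 36.0% ± 1.89 at 16 DAP, 29.9% ± 1.72 at 24 DAP and 17.0% ± 1.58 at 32 DAP (means and SDs of 3 libraries). The 100 genes of the 4 DAP list took 9.18% ± 0.131 at 8 DAP and 30.2% ± 3.07 at 4 DAP, and then 3.73% ± 0.203, 2.71% ± 0.107 and 2.65% ± 0.108 at 16, 24 and 32 DAP. In the later endosperm, which the lists did not use, the 8 DAP list thus held more reads than the 4 DAP list at all 3 stages. In the 8 DAP embryo the order was the other way round, with 6.31% ± 0.296 of reads in the 8 DAP endosperm list and 10.2% ± 1.35 in the 4 DAP list. Seed maternal tissues gave them 4.88% ± 0.270 and 3.19% ± 0.388 at 8 DAP.

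**Figure D2:**
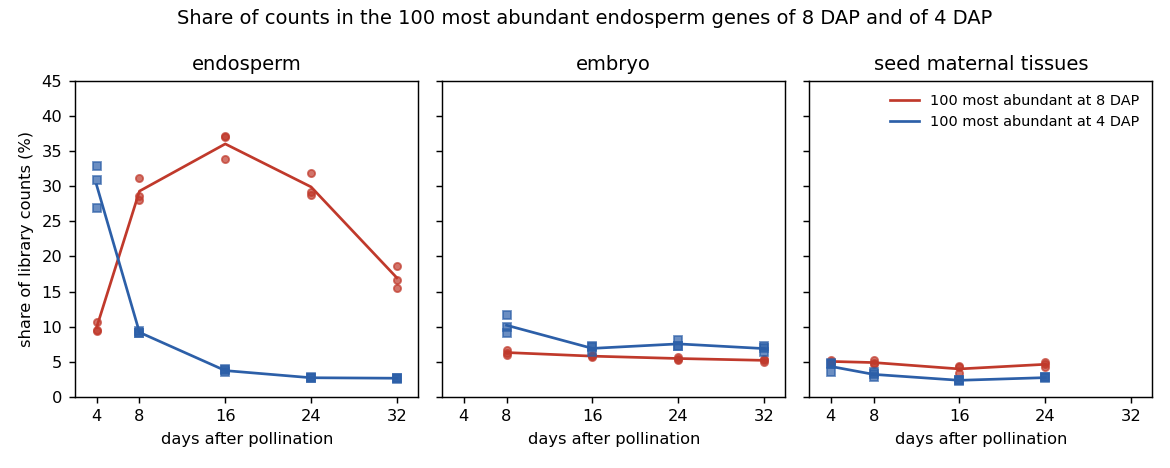
Share of library counts (%) in the 100 genes with the most reads in 8 DAP endosperm and the 100 with the most reads in 4 DAP endosperm, against days after pollination in 3 tissues. Points are libraries and lines join the means of 3; the 8 DAP list stays at 36.0% and 29.9% of endosperm counts at 16 and 24 DAP, while the 4 DAP list drops to 3.73% and 2.71%.

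The gene with the most reads at 8 DAP was HORVU.MOREX.r3.2HG0124890.1, on chromosome 2H by its identifier. It had 24115, 24334 and 24593 CPM in the 8 DAP libraries, against 100.3, 124.5 and 69.0 CPM in the 4 DAP libraries. The stages did not overlap and the 8 DAP libraries were nearly equal. On the log2 scale the gene rose by 7.24 with an SE of 0.553 (edgeR adjusted p = 2.38e-12). Of the 5 endosperm stages 8 DAP had by far the highest level: the mean was 695.2 ± 164 CPM at 16 DAP, 86.5 ± 4.28 at 24 DAP and 31.2 ± 3.61 at 32 DAP (SD, n = 3 each). In embryo it was 634.5 ± 174 CPM at 8 DAP and 1405 ± 302 at 16 DAP, and in seed maternal tissues 47.3 ± 21.7 CPM at 8 DAP and 44.8 ± 27.9 at 4 DAP.

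The largest fitted rise among genes with at least 100 CPM was that of HORVU.MOREX.r3.2HG0212810.1, also on 2H. It had 1520, 1408 and 1112 CPM in the 8 DAP libraries, against 0 counts in each of the 3 libraries of 4 DAP. Measured against 3 counts in the shallowest 4 DAP library, its 8 DAP mean was at least 2760-fold higher (edgeR adjusted p = 1.09e-10). Unlike the previous gene it stayed high, with 2609 ± 921 CPM at 16 DAP, 1421 ± 620 at 24 DAP and 523.8 ± 169 at 32 DAP (SD, n = 3 each). No embryo library of 8 DAP had more than 2 counts, and the seed maternal tissues had 0 counts at 4 DAP and 7.27 ± 3.97 CPM at 24 DAP.

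Of the genes lower at 8 DAP, HORVU.MOREX.r3.2HG0111450.1 had the most reads at 4 DAP. It had 4201, 4163 and 3844 CPM in the 8 DAP libraries, against 7744, 11273 and 6722 CPM in the 4 DAP libraries, without overlap. On the TMM scale its log2 fold change came to -1.77 with an SE of 0.236 (edgeR adjusted p = 1.26e-07). With the library total alone it was -1.08 (edgeR adjusted p = 0.000201). In a fit to the 6 libraries alone it was -1.73 (edgeR adjusted p = 0.000119). The gene was present in every group of the series, at 1331 ± 57.3 CPM in 8 DAP embryo and at 1848 ± 320 and 2033 ± 265 CPM in seed maternal tissues of 8 and 4 DAP (SD, n = 3 each).

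HORVU.MOREX.r3.6HG0547380.1, on 6H, had the most negative fitted change among genes with at least 100 CPM at 4 DAP. It had 0, 0 and 0.0354 CPM in the 8 DAP libraries, the last being 1 count, against 275.1, 85.7 and 407.1 CPM in the 4 DAP libraries. Its 4 DAP values spread widely but all lay far above 8 DAP, at least 1360-fold on the mean (edgeR adjusted p = 0.00028). The gene had 0 counts in all endosperm libraries of 16, 24 and 32 DAP and in all embryo libraries of 8 DAP. In the 4 DAP seed maternal tissues it had 53.8 CPM in replicate 1 and 0 counts in replicates 2 and 3, so a single library there held it. All 3 seed maternal libraries of 8 DAP had reads of it, at 0.13, 2.71 and 3.77 CPM.

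**Figure D3:**
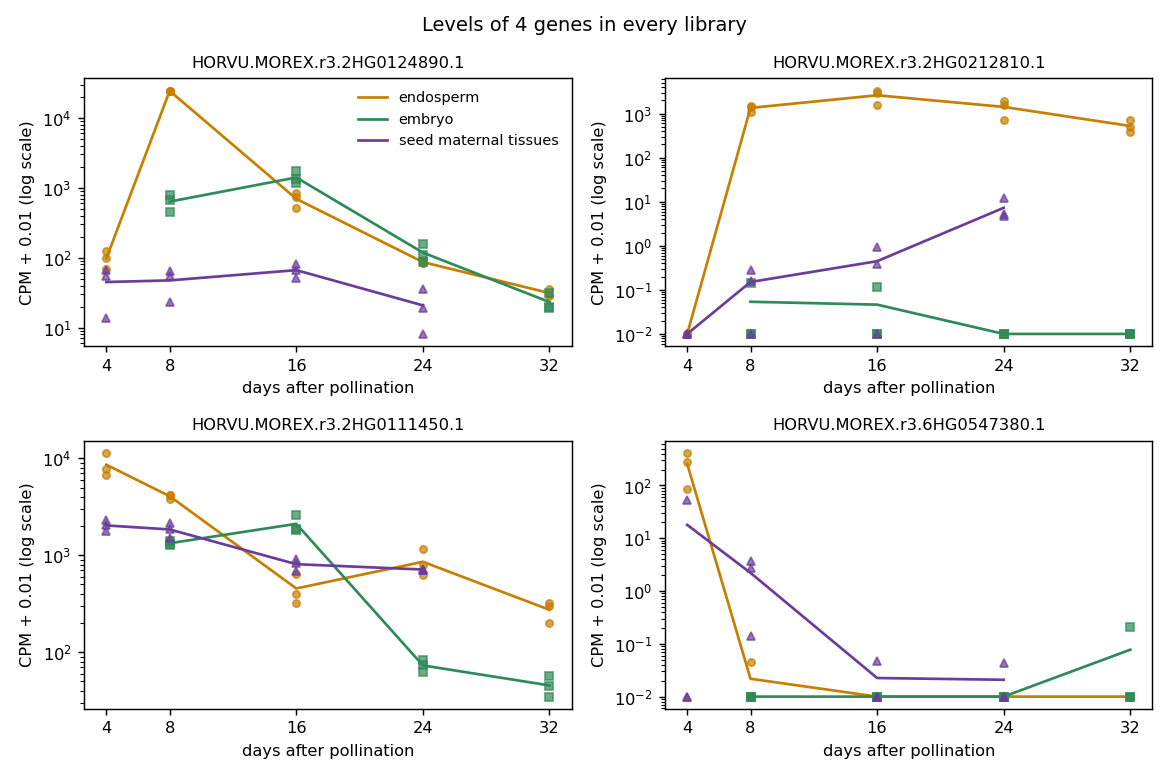
CPM plus 0.01 (log scale) of the 4 named genes in all 39 libraries against days after pollination. Points are libraries and lines join the means of 3 in endosperm, embryo and seed maternal tissues; the upper genes go to 24347 and 1347 CPM in 8 DAP endosperm, and the lower right gene has at most 1 count in any endosperm library after 4 DAP.

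Beyond these examples, 72 genes had at least 10 CPM in every 8 DAP library and at most 3 counts in every 4 DAP library, and 55 genes showed the reverse. All 72 were called higher and all 55 lower, against a background of 25.9% and 20.9% of all genes tested; both selections used the compared libraries, so these counts describe them and support nothing. The depth of the shallowest library allows up to 0.488 CPM for a gene at the floor, and that is the limit of detection at 4 DAP, against 0.189 CPM at 8 DAP. Floors cover counting error only, because PCR copies of a molecule are counted as separate reads.

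The later course of these switched genes was read from libraries outside the comparison. Of the 72 that appeared, 65 averaged at least 1 CPM at 16 DAP, 59 at 24 DAP and 53 at 32 DAP. Of the 55 that vanished, 1 reached 1 CPM at 16 DAP, 2 at 24 DAP and 1 at 32 DAP. The genes that vanished were also seldom seen outside the endosperm: 42 of 55 stayed under 1 CPM on average in every embryo and seed maternal group, against 13 of the 72 that appeared. The difference between these shares was not tested.

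Genes seen in a single endosperm group were counted at both stages; the other 11 groups of the series were not counted. At 8 DAP, 4 genes had at least 10 CPM in each of the 3 endosperm libraries and under 1 CPM in each of the other 36 libraries. At 4 DAP, 88 genes met the same limits. With a ceiling of 0.5 CPM the numbers were 2 at 8 DAP and 52 at 4 DAP. The series has no endosperm younger than 4 DAP and no embryo of that age, so a gene of 4 DAP has fewer neighbouring groups in which it could be seen. The 88 genes averaged 10.6 to 430.1 CPM (median 29.6) and together took 0.428%, 0.353% and 0.597% of the counts of the 4 DAP libraries. By their identifiers 17 lay on chromosome 5H, 15 on 7H, 13 on unplaced sequence and 12 on 6H. Of the 29594 genes tested, 4687 lay on 5H, 4454 on 7H, 157 on unplaced sequence and 3685 on 6H. For 19 of them another member lay within 10 identifier numbers.

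A wider set was bounded only by the other tissues. Of 8806 tested genes with at least 10 CPM in every 8 DAP endosperm library, 193 (2.19%) were under 1 CPM in all 24 embryo and seed maternal libraries, and 93 of these were called higher, against 3143 of the 8806. Of 6653 genes with at least 10 CPM in every 4 DAP endosperm library, 255 (3.83%) met that ceiling, and 200 of these were called lower, against 2848 of the 6653. The limit of 10 CPM used the compared libraries, so these counts are a description. Of the 93, 44 still averaged at least 10 CPM in endosperm at 16 DAP. Of the 200, 5 did, and 164 averaged under 1 CPM at 16, 24 and 32 DAP alike.

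Over all called genes, the levels in later endosperm kept the order of 8 DAP. The median over the genes called higher of their mean CPM was 6.53 at 8 DAP, against 0.607 at 4 DAP, and was 4.88, 4.94 and 4.32 at 16, 24 and 32 DAP. The median of the genes called lower was 2.25 at 8 DAP, against 10.6 at 4 DAP, and was 1.07, 1.12 and 1.34 at the later stages. Over all genes tested it was 1.95 at 8 DAP, against 1.08 at 4 DAP, and 1.34, 1.42 and 1.47 later. Among the 5 endosperm stages the highest mean fell on 8 DAP for 3955 (51.65%) of the 7658 higher genes and on 32 DAP for 1765 (23.05%). It fell on 24 DAP for 1079 (14.09%) and on 16 DAP for 859 (11.22%). For 5418 (87.46%) of the 6195 lower genes it fell on 4 DAP, and for 612 (9.88%) on 32 DAP. Over all genes tested, 4 and 8 DAP had 26.4% and 31.1%, and 16, 24 and 32 DAP had 9.05%, 10.6% and 22.8%. The call leaves out 4 DAP for higher genes and 8 DAP for lower genes, so these shares are partly fixed by it.

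**Figure D4:**
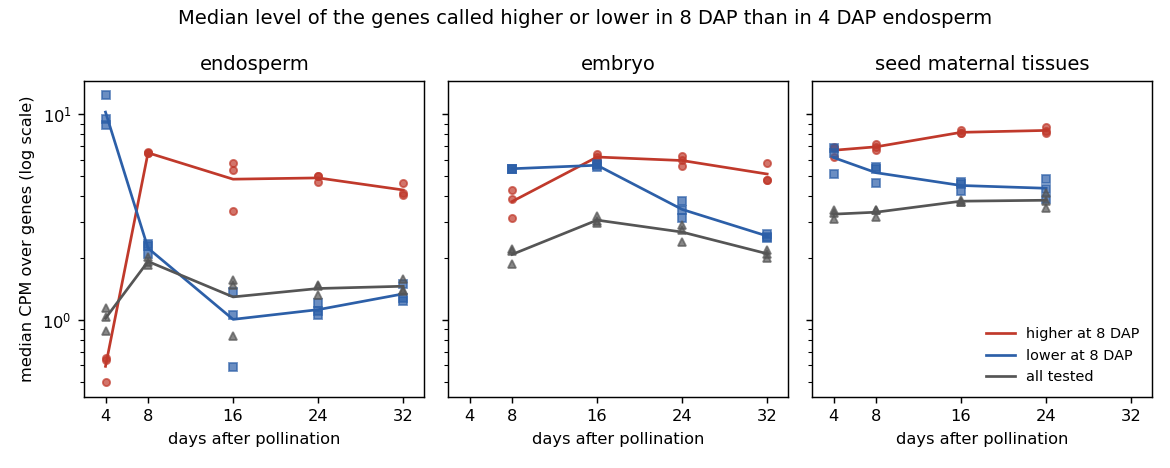
Median CPM (log scale) over the genes called higher at 8 DAP, called lower, and over all genes tested, per library, against days after pollination in 3 tissues; lines join the means of 3 libraries. In endosperm the points of the higher genes lie above those of the lower genes at 8 DAP and later, and below them at 4 DAP.

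In the other tissues neither set stood out in the same way. The genes called higher in 8 DAP endosperm had medians of 3.80 CPM in 8 DAP embryo and of 7.07 and 6.92 CPM in seed maternal tissues of 8 and 4 DAP. Genes called lower had medians of 5.47 CPM in 8 DAP embryo and of 5.33 and 6.41 CPM in seed maternal tissues of 8 and 4 DAP. The medians of all genes tested were 2.11, 3.41 and 3.49 CPM in these groups, so both sets were above the typical gene there.

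Seed maternal tissues over the same 4 days served to ask which changes were shared, with no library in common between the comparisons. There 3210 genes (10.8%) were called, 1956 (6.61%) higher and 1254 (4.24%) lower at 8 DAP. Without replicate 1 of the 4 DAP seed maternal tissues the count was 2209, and without replicate 3 it was 4677. Of the 7658 genes higher in endosperm, 636 (8.31%) were also higher and 215 (2.81%) lower in seed maternal tissues. Of the 6195 genes lower in endosperm, 538 (8.68%) were also lower and 414 (6.68%) higher there. Read from the other list, 32.5% of the 1956 genes higher in seed maternal tissues were higher in endosperm and 21.2% were lower. Of the 1254 genes lower in seed maternal tissues, 17.2% were higher in endosperm and 42.9% lower. Over all genes tested, 25.9% were higher in endosperm and 20.9% lower.

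Across 16072 genes with at least 1 CPM at either stage in each tissue, the log2 fold changes correlated weakly (Pearson r 0.198, Spearman rho 0.160; across genes, which are not independent replicates). The median absolute log2 fold change of these genes was 1.33 in endosperm and 0.36 in seed maternal tissues.

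The difference between the changes was tested directly. It passed for 11178 genes (37.8%), where the log2 fold change of endosperm minus that of seed maternal tissues was at least 1 in size with an edgeR adjusted p under 0.05. The difference was positive for 6138 genes (20.7%) and negative for 5040 genes (17%). Of the genes called higher in endosperm, 5343 (69.8%) had a positive difference, and of those called lower, 4306 (69.5%) had a negative difference. The call and the difference use the same endosperm libraries, so the direction and size of these shares are partly fixed by the call. A further 36 genes called higher in endosperm had a negative difference, and 16 called lower had a positive one. The other calls in endosperm were not shown to differ from the change in seed maternal tissues, which does not make them shared. Among them are genes with 0 counts in the seed maternal libraries of both stages. For such genes the fitted difference had no usable error, so the test could not pass them. HORVU.MOREX.r3.2HG0124890.1 had a difference of 7.08 (SE 0.659, edgeR adjusted p = 4.24e-10) and HORVU.MOREX.r3.2HG0111450.1 a difference of -1.69 (SE 0.327, edgeR adjusted p = 7.15e-05).

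**Figure D5:**
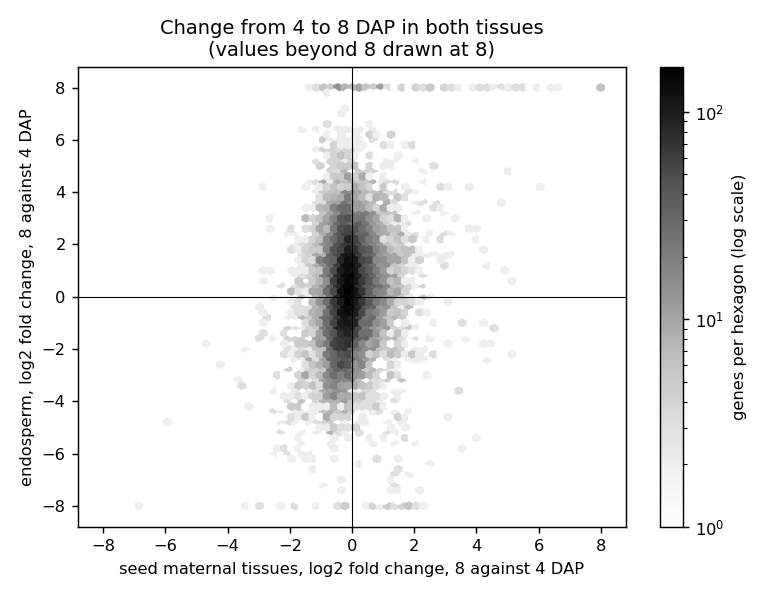
Log2 fold change from 4 to 8 DAP in endosperm (vertical) against that in seed maternal tissues (horizontal) for 16072 genes with at least 1 CPM at either stage in each tissue; shading gives genes per hexagon on a log scale. The cloud is wider along the endosperm axis, with a median absolute change of 1.33 against 0.36.

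Transcripts of neighbouring tissue were looked for with lists taken from libraries outside the comparison. The seed maternal list held 21 genes with at least 50 CPM in each seed maternal library of 4 and 8 DAP and under 1 CPM in every endosperm library from 16 DAP and every embryo library. Its summed level was 34.4, 28.3 and 25.0 CPM (TMM scale) in the 8 DAP endosperm, against 473.9, 385.0 and 555.1 CPM in the 4 DAP endosperm, without overlap (exact two-sided permutation test, p = 0.1, the smallest that 3 against 3 can give). In seed maternal tissues the sum was 4933 to 5303 CPM at 8 DAP and 7317 to 10280 CPM at 4 DAP. Of the 21 genes, 16 were called lower and 0 higher, where 20.9% and 25.9% of all genes tested were so called. The ceiling in later endosperm leans the list towards lower calls. At 16 DAP the median was 4.88 CPM for genes called higher and 1.07 CPM for genes called lower. The shares over all genes are therefore no even measure for this list or its sum. Among the 21, 4 had 0 counts in all 8 DAP endosperm libraries and 1 in all 4 DAP libraries.

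The members of the list did not stand at a common share of their seed maternal level. The endosperm level per gene was a median of 0.0392% (0% to 3.87%) of the seed maternal level at 8 DAP, and a median of 0.646% (0% to 103.7%) at 4 DAP. Of the 6195 genes called lower, 24 had a 4 DAP endosperm level at or under that median share of their seed maternal level. Of the 7658 genes called higher, 0 had an 8 DAP level at or under the 8 DAP median share, and 41 lay at or under its highest share. For the lower genes and the highest 4 DAP share that number was 1158, so the number depends on the share taken. Summed over the list, the endosperm level was 0.57% of the seed maternal level at 8 DAP and 5.55% at 4 DAP (TMM scale). For the list set at 20 CPM the summed shares were 0.668% and 22.55%. Called genes at or under the summed shares were not counted. What part RNA of surrounding tissue has in the calls was not tested beyond these values.

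An embryo list of 13 genes, with at least 50 CPM in each 8 DAP embryo library and under 1 CPM in every seed maternal library and every endosperm library from 16 DAP, summed to 8.61, 6.64 and 4.56 CPM in 8 DAP endosperm, against 541.2, 411.8 and 325.4 CPM in 4 DAP endosperm (exact two-sided permutation test, p = 0.1, the smallest possible). Of the 4 DAP sum, 425.8 CPM on average came from 4 genes and 0.288 CPM from the other 9, which in 8 DAP embryo summed to 1633 CPM. Of the 13 genes, 7 had 0 counts in all 4 DAP endosperm libraries, and 4 were called lower and 1 higher, where 20.9% and 25.9% of all genes tested were so called. The ceiling in later endosperm leans the embryo list towards lower calls as well.

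As a check of the label, the endosperm list was to hold genes with at least 50 CPM in every 16 and 24 DAP endosperm library and under 1 CPM in every other tissue's library, and 1 gene met this. It had 7.93, 10.5 and 12.9 CPM (TMM scale) at 8 DAP and 236.0, 187.3 and 333.7 CPM at 4 DAP. With a minimum of 20 CPM the list held 4 genes, of which 3 were called higher and 1 lower. Their sum was 49.0, 46.2 and 63.9 CPM at 8 DAP, against 236.6, 187.6 and 333.7 CPM at 4 DAP. With the minimum of 50 CPM and a ceiling of 5 CPM the list held 9 genes, of which 7 were called higher and 1 lower, where 25.9% and 20.9% of all genes tested were so called. The minimum in later endosperm leans the endosperm list towards higher calls. The sum of the 9 was 1194, 1337 and 1661 CPM at 8 DAP, against 467.5, 389.6 and 492.9 CPM at 4 DAP, and at most 2.46 CPM in any seed maternal library of these stages. The summed level of the endosperm list was thus lower at 8 DAP under the first and second limits and higher under the last.

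Relative to library totals, the number of genes detected was larger in each 8 DAP library than in any 4 DAP library. With every library thinned to the smallest total of 6148131 counts, 18265, 18152 and 17888 genes had at least 5 reads in the 8 DAP libraries, against 15460, 15872 and 16387 in the 4 DAP libraries, without overlap. The difference was 2195 genes (exact two-sided permutation test, p = 0.1, the smallest that 3 against 3 can give). Without thinning, 17074 ± 253 genes of the 8 DAP libraries and 14851 ± 419 genes of the 4 DAP libraries reached 1 CPM (mean and SD of 3 libraries). Both counts even out the totals and not the TMM factors, which were 0.846 to 0.921 at 8 DAP and 0.454 to 0.707 at 4 DAP. At equal totals, a given level on the TMM scale thus had fewer reads at 4 DAP. Detection on the TMM scale was not counted.

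Called genes were spread evenly over the 7 chromosomes. By identifier, between 25.3% (5H) and 27.1% (4H) of the tested genes of a chromosome were higher at 8 DAP and between 20.2% (3H) and 21.5% (5H) lower. The 157 tested genes on unplaced sequence stood apart, with 19 (12.1%) higher and 103 (65.6%) lower. They took 0.0467%, 0.0458% and 0.0488% of the counts at 8 DAP, against 0.174%, 0.138% and 0.149% at 4 DAP. Their share in later endosperm was 0.113% ± 0.0115 at 16 DAP and 0.130% ± 0.0141 at 24 DAP, and in 4 DAP seed maternal tissues 0.0542% ± 0.00362 (mean ± SD, n = 3 each).

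Identifier numbers follow the order of genes along a chromosome, and tested neighbours with the same call formed 90 runs of 5 or more higher genes and 40 runs of 5 or more lower genes. The numbers as printed rise in steps of 10, and the spans of the runs below count these steps. How many runs of this length the call rates of 25.9% and 20.9% alone would give was not tested. Near-identical neighbours can share reads, so the members of a run are not independent. Their levels differed in later course. A run of 9 higher genes on 1H, within 10 identifier numbers, summed to 299.4, 249.6 and 342.2 CPM at 8 DAP, against 10.7, 11.6 and 8.13 CPM at 4 DAP, and then averaged 9092 CPM at 16 DAP, 12600 at 24 DAP and 10030 at 32 DAP. A run of 10 on 4H summed to 1874, 1887 and 1899 CPM at 8 DAP, against 79.1, 91.4 and 66.0 CPM at 4 DAP, and averaged 1049 CPM at 16 DAP. A run of 10 on 7H, spread over 30 identifier numbers, summed to 3072, 3595 and 3532 CPM at 8 DAP, against 146.5, 137.6 and 128.8 CPM at 4 DAP, and averaged 473.9 CPM at 16 DAP and 105.8 at 32 DAP. The 1H run was thus just beginning at 8 DAP, while the 7H run was highest there.

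Among lower genes the longest run held 12 on 5H within 22 identifier numbers. It summed to 2.83, 2.76 and 4.25 CPM at 8 DAP, against 99.2, 116.2 and 139.6 CPM at 4 DAP, and stayed at 3.29 to 5.01 CPM on average at 16 to 32 DAP. A run of 8 lower genes on 6H within 9 numbers was far more abundant, with 452.9, 475.6 and 354.6 CPM at 8 DAP, against 3455, 4598 and 3955 CPM at 4 DAP. It averaged 18.4 CPM at 16 DAP, and 1837 CPM in 8 DAP embryo and 792.1 CPM in 16 DAP embryo, so that this run was also high in the young embryo.

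Transcripts of the same gene were seldom called in opposite directions. Of 239 genes with at least 2 tested entries, 46 had 2 or more entries called in the same direction and 8 had entries called in opposite directions. In 1 of these 8 both entries averaged at least 10 CPM at their higher stage. How the counting divided reads between entries of a gene is not known, so these 8 cannot be told apart from split reads.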

How the data were processed

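RNA was measured in 39 libraries, 13 groups of 3. Per the labels' protocols, poly-A libraries were sequenced as single-end 100-base reads. The authors deposited whole-number read counts per transcript entry, neither normalized nor pooled; per the file headers, each column is 1 sorted alignment. HISAT2 2.1.0, Subread 1.5.2, SAMtools and bcl2fastq are named in the submitters' processing notes. Strand use and the handling of multiply mapped reads are not given in the sources used here. The table has 83990 entries of 81687 genes.

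filterByExpr, given the 13 groups, kept 29594 genes. All 39 libraries entered 1 model of group means, leaving 26 residual degrees of freedom, with TMM factors, robust glmQLFit and glmQLFTest in edgeR 4.0.16 (limma 3.58.1, R 4.3.3). Adjusted p-values are Benjamini-Hochberg values across every gene kept. Standard errors were derived from the F statistic. CPM is over library totals unless the TMM scale is named. The fit was tested on simulated data. Alternatives were other scalings, filters, fold rules, DESeq2 1.42.0, a replicate block, summed entries and left-out libraries.

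Named genes follow a rule: among called genes whose stages do not overlap, the one with the most reads and the one with the largest fitted change at 100 CPM or more, in each direction. The rule, the lists and the comparison were chosen with earlier results of these data known. Gene lists by description were planned and not run, since 0 identifiers matched the reference table.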

Additional observations from a re-analysis of the deposited data

Results flagged for a closer look

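The change from 4 to 8 DAP differed between endosperm and seed maternal tissues for 11178 genes, by a test of the difference itself (edgeR adjusted p under 0.05, log2 difference 1 or more in size). Library numbers lie apart between the stages in endosperm and mostly run on in seed maternal tissues, so what they might track cannot be told apart from tissue. Of the named genes, HORVU.MOREX.r3.2HG0124890.1 differed by 7.08 (edgeR adjusted p = 4.24e-10), HORVU.MOREX.r3.2HG0111450.1 by -1.69 (edgeR adjusted p = 7.15e-05) and HORVU.MOREX.r3.6HG0547380.1 by -11.27 (edgeR adjusted p = 0.00896). The last value is a fitted one from a gene with at most 1 count per library in 8 DAP endosperm and depends on the prior count. In 4 DAP seed maternal tissues that gene had reads in replicate 1 only, and in those of 8 DAP it had 4, 78 and 104 counts. For HORVU.MOREX.r3.2HG0212810.1 the fitted difference had no usable error, because the gene had 0 counts in all 6 libraries of 4 DAP in both tissues. Groups of 3 libraries are too small for a search for single outlying libraries.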

How the results depend on the processing

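The number of genes called in endosperm stayed between 10767 (fold minimum tested within the test) and 16342 (no fold minimum) under the settings tried, and between 12421 and 13408 when a library was left out. DESeq2 called 13259 genes, a fit to the 6 libraries alone 11945 of the 19151 it tested, and summed entries 13768. Without replicate 3 of both stages, a setting chosen after seeing the data, 12353 were called. Higher genes ranged from 5906 to 10845 and lower genes from 4221 to 7359, and the share of higher calls was 47.4% with DESeq2. The seed maternal count was 2068 in a fit to its own 6 libraries and 1216 with the fold minimum tested, and 2209 to 4677 with a library left out; the cause was not tested. Genes with transcripts called in opposite directions numbered 3 with the fold minimum tested and 4 to 7 with a library left out. The tissue difference passed for 8206 to 12686 genes. The named genes kept direction and call in all 15 alternatives each. With marker lists set at 20 CPM the seed maternal sum differed by -2202 CPM and in the 9 alternatives tried for each of the seed maternal and embryo lists the 8 DAP sum was the lower. Low-abundance genes at 4 DAP are limited by the shallowest library of 6148131 counts.

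Equal replicate numbers are not said to mark paired samples, and deviations of equally numbered libraries of 8 and 4 DAP correlated at -0.0611, 0.0322 and 0.00989 across genes. With the replicate block 13731 genes were called in endosperm, 3093 in seed maternal tissues and 11053 for the difference, and it changed no call of a named gene. Not every library correlated best with its own number.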
